A study of Cucumis sativus with 12 samples.

Results

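PIN2 (Csa1G427480) is the cucumber gene that the deposited annotation names Auxin efflux carrier component 2. It is 1 of the 24345 genes in the series table and was picked by its ID because its level differed between the genotypes in these same libraries, so its own levels and fold changes are given as a description with no test. The annotation names 9 other genes Auxin efflux carrier component, and these served as the reference. A second annotation column of the table gives the gene the name CSPIN5, and the protein database name is that of a component 2-like protein.

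PIN proteins carry the hormone auxin out of plant cells. Those of the plasma membrane sit on one side of the cell, so that auxin flows in a set direction, and their placement is set by protein kinases and by membrane traffic. In Arabidopsis, PIN2 is best known from the root, where it moves auxin through the outer cell layers during bending towards gravity, while auxin flow in the carpel shapes the style, the stigma and the transmitting tract, through which pollen tubes grow.

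The tissue was cucumber stigma together with style, taken when the flower opened (anthesis). The 4 genotypes were wild type (WT), Csspt-/-, Csalc-/- and the double mutant CssptCsalc-/-, each with 3 biological replicates, and the labels list no treatment. The mutants are named for SPATULA and ALCATRAZ, related bHLH transcription factors of carpel development. The labels used here give neither the way the alleles were made nor the number of independent lines or plants behind a library.

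The libraries held 32155631 to 37986853 counts, and 18850 genes were abundant enough to be tested. SPATULA is the protein name of Csa2G356640 and Csa6G491000, no gene is named ALCATRAZ, and neither gene checks the genotype labels, since a mutation need not lower its transcript. Csalc replicate 3 stood apart: its log2 CPM, counts scaled to library size, correlated with the other 11 libraries at 0.810 to 0.856, whereas those libraries correlated at 0.974 to 0.985 within groups. Of all genes tested, 20.3% lay at least 2-fold outside the range of the other 11 libraries in it, and the summed level of 18 photosynthesis genes was 255 CPM there against 2169 to 4365 CPM elsewhere. The common biological coefficient of variation, a single value for the spread over all genes, was 0.363 with this library and 0.193 without it. Results are therefore given both ways.

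PIN2 was highest in WT, lower in each single mutant and lowest in the double mutant. In WT, 839, 853 and 607 reads were counted for PIN2, which is 24.3, 27.1 and 19.9 CPM. In Csspt the levels were 4.99, 4.60 and 6.47 CPM, from 162, 156 and 206 reads. The 3 Csspt libraries lay close together and all below the lowest WT library. In Csalc, replicates 1 and 2 had 2.30 and 1.98 CPM, from 72 and 67 reads, and replicate 3, the library that stood apart, had 6.78 CPM from 276 reads. In the double mutant the levels were 1.42, 0.803 and 0.428 CPM, from 56, 30 and 15 reads. Every mutant library therefore lay below every WT library, and every double mutant library below every library of either single mutant. RNA was taken from whole stigma and style, so fewer cells that express PIN2 and less PIN2 RNA per cell cannot be told apart.

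**Figure D1:**
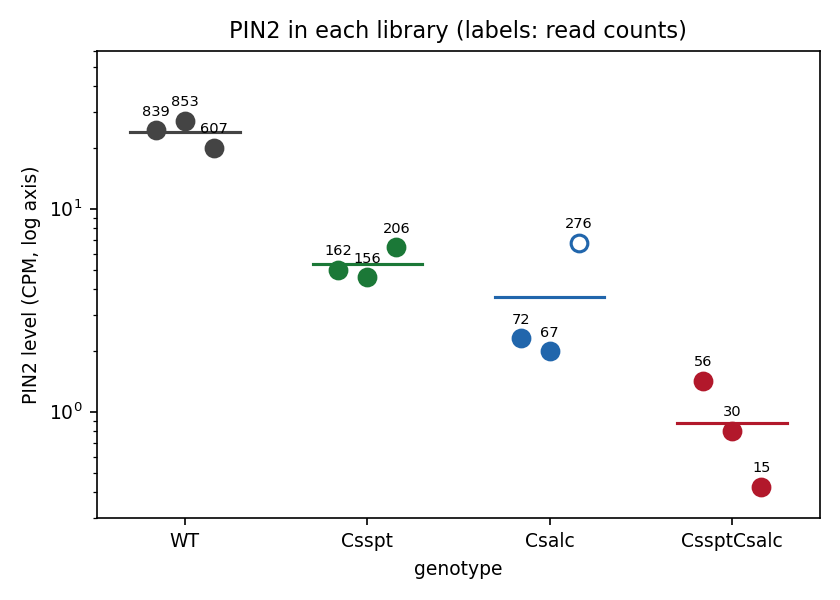
PIN2 level in CPM on a log axis in each of the 12 libraries, by genotype, with the read count beside each point and the group mean as a line; the open point is Csalc replicate 3. WT libraries sit between 19.9 and 27.1 CPM and double mutant libraries between 0.428 and 1.42 CPM, while the Csspt and Csalc points overlap through Csalc replicate 3.

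The group means were 23.8 ± 3.65 CPM in WT, 5.35 ± 0.989 in Csspt, 3.69 ± 2.68 in Csalc and 0.883 ± 0.50 in the double mutant (SD, n = 3). Only the neighbours Csspt and Csalc overlapped in this order, at 4.60 to 6.47 and 1.98 to 6.78 CPM. Without replicate 3 the Csalc mean was 2.14 ± 0.221 CPM (SD, n = 2), and these 2 libraries lay below the 3 Csspt libraries and above the 3 double mutant libraries. The coefficient of variation was 15.3% in WT, 18.5% in Csspt and 56.6% in the double mutant. In Csalc it was 72.8% with replicate 3, the highest of the 4 groups, and 10.3% without it, the lowest.

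Counting error alone was small next to the differences between genotypes. The exact Poisson 95% interval was 559.7 to 657 reads for the lowest WT library and 42.3 to 72.7 reads for the highest double mutant library. Within the double mutant, the interval of replicate 3, at 8.40 to 24.7 reads, did not reach that of replicate 1, so these libraries differed by more than counting error. Intervals cover counting error only.

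On the authors' FPKM scale, which divides by gene length and so lets genes be set side by side, PIN2 had 9.78, 10.8 and 7.85 FPKM in WT. It had 2.06, 1.91 and 2.73 FPKM in Csspt and 0.928, 0.809 and 3.59 FPKM in Csalc. The double mutant had 0.621, 0.339 and 0.177 FPKM. In WT, 62.7% to 67.5% of the 24345 genes in the table, with genes at 0 counted, lay below PIN2, so it was a gene of middle abundance. In the double mutant that share was 22.5% to 29.7%, which places PIN2 among the less abundant transcripts. Only 19822 to 20402 genes per library had a value above 0, so its place among detected genes alone was lower in every library.

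The PIN2 log2 fold change against WT was -2.15 ± 0.50 (SE) in Csspt, -2.68 ± 0.51 in Csalc and -4.74 ± 0.57 in the double mutant. As linear values, PIN2 was 4.44-fold, 6.42-fold and 26.7-fold lower than in WT. Leaving out Csalc replicate 3 gave -2.16 ± 0.29, -3.48 ± 0.37 and -4.74 ± 0.34, so the Csalc value grew to 11.1-fold and the other 2 hardly moved. The double mutant differed from Csspt by -2.59 ± 0.52 and from Csalc by -2.06 ± 0.52. Without Csalc replicate 3, the difference from Csalc was -1.26 ± 0.37, a 2.40-fold lower level in place of a 4.16-fold one.

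The level in the double mutant was set against the sum of the single-mutant log2 changes. With 12 libraries this sum was -4.83, and the double mutant departed from it by 0.09 ± 0.72 (SE). Without Csalc replicate 3 the sum was -5.63 and the departure 0.89 ± 0.47, which means a smaller fall than the sum. The sign of the departure depends on single libraries, since it was -0.43 without double mutant replicate 1. On the linear scale the product of the single-mutant folds was 28.5 with 12 libraries and 49.5 without Csalc replicate 3, beside a fold of 26.7 in the double mutant in both of these fits.

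**Figure D2:**
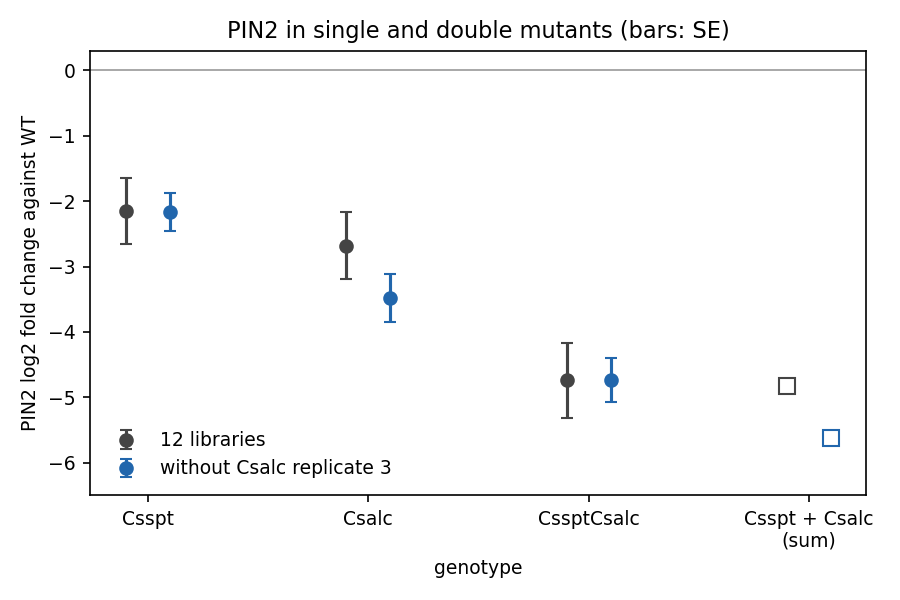
PIN2 log2 fold change against WT in each mutant, with standard errors as bars, fitted with 12 libraries and without Csalc replicate 3; open squares give the sum of the Csspt and Csalc changes. The double mutant stays at -4.74 in both fits, while the sum moves from -4.83 to -5.63.

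Among all 18850 genes tested, PIN2 had the 68th lowest fold change in Csspt, the 49th in Csalc and the 24th in the double mutant. A strict step, with each WT library above all single-mutant libraries and each of those above all double mutant libraries, was met by 92 genes, or 0.488% of those tested, and the reverse step by 68 genes. PIN2 was the 5th of the 92 by size of the fall. When Csalc replicate 3 was left out, 523 genes met the step and PIN2 was 9th. NAC transcription factor 56 (Csa3G100800) was also among the 92, at -5.06 in the double mutant.

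The neighbours of PIN2 in ID order had smaller falls than PIN2 or none in each mutant. PIN2 was picked for its change, so this follows from the choice and does not show whether the fall was confined to PIN2. The 3 IDs that follow PIN2 were also at lower values in Csspt and the double mutant. Csa1G426980, named for a WRKY factor, and Csa1G427490, named for a nucleotide-sugar transporter, are the IDs on either side of PIN2. Their log2 fold changes in the double mutant were -0.11 ± 0.36 and -1.17 ± 0.45, with Benjamini-Hochberg adjusted p = 0.879 and 0.146 in edgeR's quasi-likelihood test of all genes. Of the 10 nearest IDs, 5 on each side, none passed an adjusted p of 0.05 in Csspt, where 0.0584% of all genes did, or in Csalc, where 0.785% did. In the double mutant 2 of the 10 passed, where 7.18% of all genes did: Csa1G426950, a hypothetical protein, was higher by 1.58 ± 0.29, and Csa1G427500, a subunit of the oligosaccharyltransferase, was lower at -0.66 ± 0.11. With Csalc replicate 3 left out the counts were 3, 0 and 4 of the 10, where 4.72%, 4.36% and 36.1% of all genes passed. Csa1G427490 was then among those that passed edgeR's test, at -1.09 ± 0.23 in Csspt (adjusted p = 0.0266) and -1.18 ± 0.23 in the double mutant (adjusted p = 0.00286). The third ID after PIN2, Csa1G427510, had -1.13 ± 0.84 in Csspt and -1.26 ± 0.84 in the double mutant with 12 libraries and did not pass in either fit.

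The other PIN genes did not share a single pattern. The most abundant was PIN3 (Csa5G576590), in Arabidopsis a carrier with a part in tropic growth, at 67.1, 83.1 and 77.5 FPKM in WT. It had 50.6, 42.8 and 39.7 FPKM in Csspt, 41.5, 29.0 and 96.5 FPKM in Csalc, and 42.3, 19.6 and 27.1 FPKM in the double mutant. All double mutant libraries lay below all WT libraries, while Csalc replicate 3 was the highest of the 12 in FPKM. In CPM it was not, since the highest Csalc value was 235 CPM, inside the WT range of 215 to 268 CPM. PIN3 fell in the double mutant by edgeR's test, with a log2 fold change of -1.47 ± 0.34 (adjusted p = 0.0300). In Csspt it had -0.84 ± 0.34 (adjusted p = 0.590) and in Csalc -0.68 ± 0.34 (adjusted p = 0.246) by the same edgeR test. Once Csalc replicate 3 was left out, its Csalc value was -1.13 ± 0.28 and passed edgeR's test (adjusted p = 0.0472).

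PIN8 (Csa3G827360), in Arabidopsis a short PIN of the endoplasmic reticulum, went the other way. It had 10.8, 11.7 and 12.2 FPKM in WT and 23.4, 16.7 and 20.2 FPKM in the double mutant, and rose there by 0.68 ± 0.18 on the log2 scale (edgeR adjusted p = 0.0460). In Csspt it had 16.8 to 20.1 FPKM, also above every WT library, at 0.65 ± 0.18 (edgeR adjusted p = 0.309 with 12 libraries and 0.0193 without Csalc replicate 3). PIN4 (Csa5G284520) had 28.9 ± 6.46 FPKM in WT and 37.8 ± 6.05 in the double mutant, and its libraries overlapped (log2 fold change 0.28 ± 0.29, edgeR adjusted p = 0.590).

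Some PIN genes were barely detected. Csa2G074170, named component 5, had at most 20 reads summed over any genotype. Csa2G074260, the only other gene named component 2, had 0, which allows up to 3 counts, or 0.0736 to 0.0982 CPM, per library. Reads assigned to the name component 2 in this tissue thus came from Csa1G427480. Whether reads are shared between near-identical PIN copies was not tested.

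PIN2 made up a falling share of the summed PIN transcript, which sets it against genes of its own family within each library. Of the summed FPKM of the 10 PIN genes, PIN2 was 7.35%, 6.78% and 5.52% in WT. It was 1.88%, 2.03% and 3.06% in Csspt and 0.929%, 1.16% and 1.67% in Csalc. In the double mutant it was 0.549%, 0.465% and 0.180%. On this scale Csalc replicate 3 lay below all Csspt libraries, although its PIN2 level lay above them, because its summed PIN level was 215 FPKM against 69.6 to 160.1 FPKM in the other 11 libraries. PIN3 held the first place in 10 of the 12 libraries, and PIN4 in double mutant replicates 2 and 3.

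**Figure D3:**
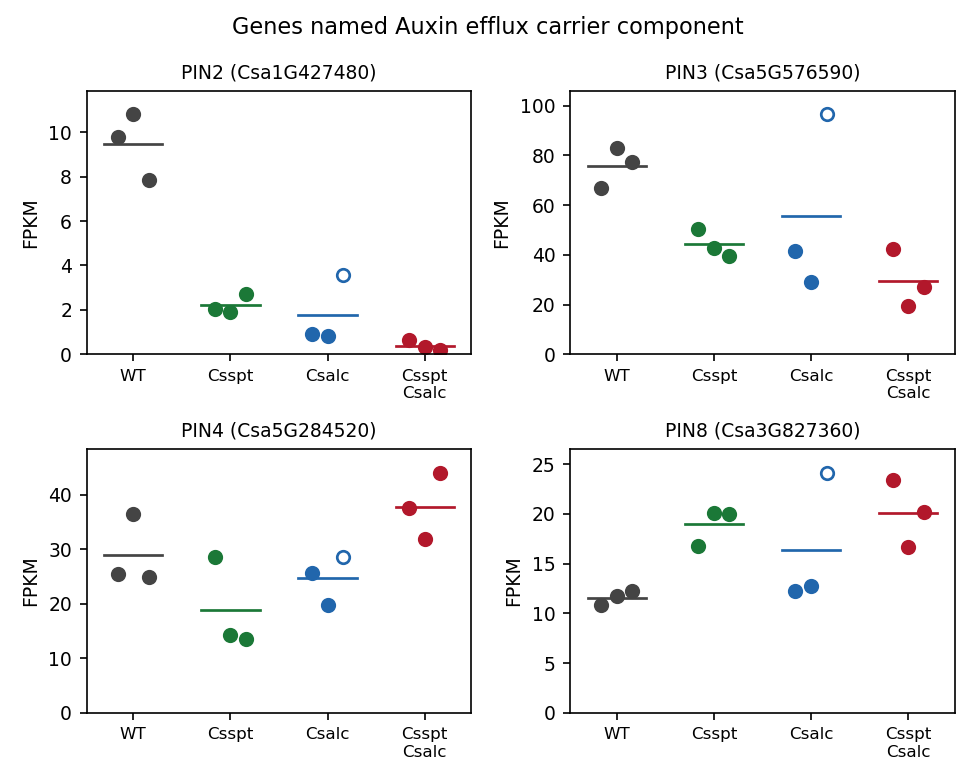
FPKM in each library of PIN2, PIN3, PIN4 and PIN8, by genotype, each panel on its own axis from 0, with group means as lines and Csalc replicate 3 as an open point. PIN2 and PIN3 are lower in the double mutant than in WT, PIN8 is higher, and the PIN4 libraries of these genotypes overlap.

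The wider auxin transport machinery was described by lists of names: the other PIN genes, PIN-LIKES proteins (carriers of the endoplasmic reticulum), AUX1/LAX importers, ABCB transporters, kinases that act on PIN proteins and factors of PIN traffic and polarity. Of the 66 genes listed beside PIN2, 57 passed the filter. In Csspt and Csalc none of the 57 passed edgeR's test, where 0.0584% and 0.785% of all genes did. An unadjusted p under 0.05 was found for 4 and 15 of the 57, beside 1415 and 4387 of all 18850 genes. DESeq2 passed 1 and 4 of the 57, beside 321 and 1595 of all genes. In the double mutant 3 rose and 3 fell, against 3.77% and 3.41% of all genes. The median log2 fold change of the 57 was 0.09 and that of all genes 0.03. PIN2 had a lower fold change than any of the 57 in each mutant against WT, where the lowest others were -1.74 in Csspt, -2.25 in Csalc and -2.50 in the double mutant. Without Csalc replicate 3, 58 genes were tested and 15 rose and 10 fell in the double mutant, where 19.2% and 16.8% of all genes did. PIN2 again lay lowest there and in Csspt, and in Csalc 1 gene lay lower, Csa2G074170, which had 0 reads in Csalc.

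The double mutant was also set against each single mutant. Against Csspt none of the 57 transport genes passed edgeR's test, where 0.361% of all genes did. An unadjusted p under 0.05 was found for 10 of the 57 and 2324 of all genes, and DESeq2 passed 4 of the 57 and 872 of all genes. Against Csalc 1 passed, where 0.711% of all genes did, and this was GNL2 (Csa2G004740), a factor of vesicle traffic, which was lower in the double mutant. Of the 58 tested with Csalc replicate 3 left out, 3 passed in Csspt and 4 in Csalc against WT, where 4.72% and 4.36% of all genes did. In the double mutant 16 of the 58 passed against Csspt and 12 against Csalc, where 14.4% and 11.2% of all genes did. PIN2 lay below all of the transport genes in the double mutant against Csspt, and 4 of them lay below it against Csalc.

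**Figure D4:**
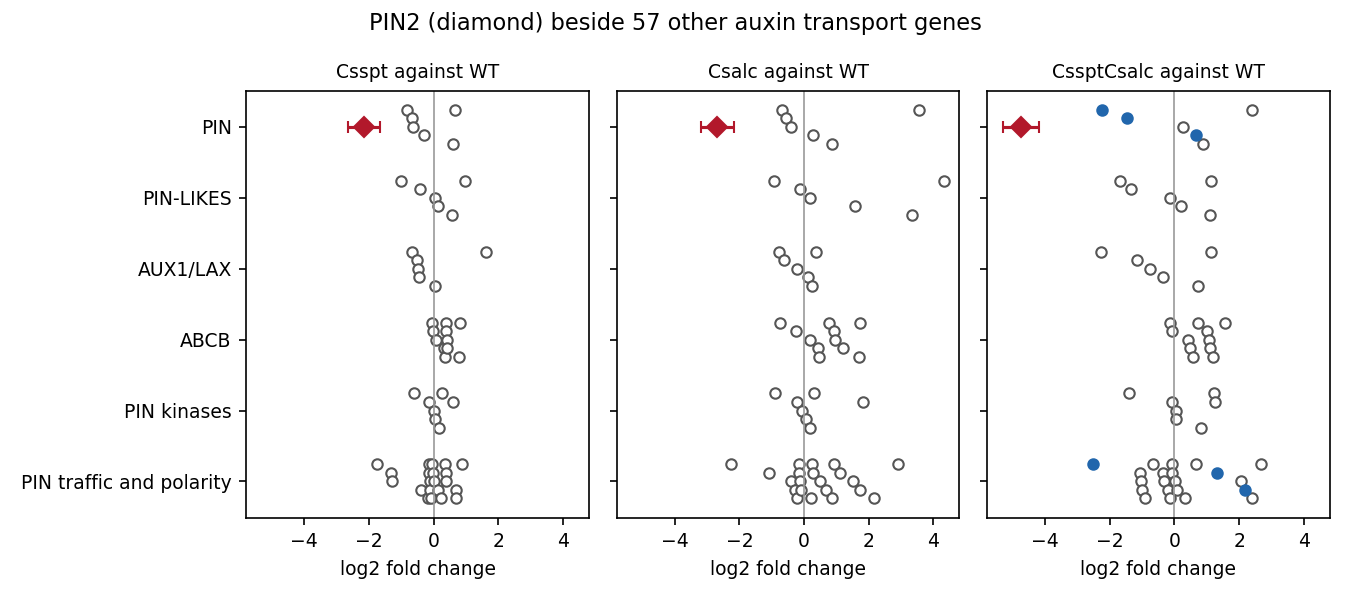
Log2 fold change against WT of PIN2 (diamond, with its standard error) and of 57 other auxin transport genes (circles) in 6 lists, in Csspt, Csalc and the double mutant, with 12 libraries; filled circles passed edgeR's test at an adjusted p under 0.05. PIN2 lies to the left of all circles in each panel, at -2.15, -2.68 and -4.74, and the filled circles are 3 genes that rose and 3 that fell in the double mutant.

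By list, 1 of the 6 other PIN genes tested, PIN8, rose and 2 fell in the double mutant, where 3.77% and 3.41% of all genes did. None of the 6 importers and 6 PIN-LIKES tested passed edgeR's test with 12 libraries, although 1 gene of each of these 2 lists had an unadjusted p under 0.05. With Csalc replicate 3 left out, 1 importer fell, and 2 PIN-LIKES rose and 1 fell, where 19.2% of all genes rose and 16.8% fell. Of 6 AUX1/LAX genes tested, the one named LAX3 (Csa5G374730), an importer whose Arabidopsis namesake acts in lateral root emergence, had 14.8, 13.6 and 13.8 CPM in WT. It had 1.90, 3.43 and 3.51 CPM in the double mutant, but 0.491 CPM in Csalc replicate 3, which widened its spread. Its double mutant value was -2.26 ± 0.80 (edgeR adjusted p = 0.119), and -2.27 ± 0.24 without that library (adjusted p = 1.37e-04). PIN-LIKES 7 (Csa3G000690) had -1.33 ± 0.77 (edgeR adjusted p = 0.326) with 12 libraries and -1.34 ± 0.20 (adjusted p = 8.52e-04) without it. Another gene named PIN-LIKES 7, Csa3G000170, lay higher in the double mutant, at 1.12 ± 1.02 (edgeR adjusted p = 0.533) with 12 libraries and 1.11 ± 0.29 (adjusted p = 0.0134) without it. PIN-LIKES 6 (Csa4G337340) lay higher, at 178 ± 38.0 CPM in WT and 379 ± 21.7 CPM in the double mutant, with 1.09 ± 0.34 (edgeR adjusted p = 0.0804), or 1.08 ± 0.16 (adjusted p = 8.12e-04) without it.

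In the list of PIN traffic and polarity, which was drawn up by protein name, 3 of 21 tested genes passed in the double mutant. Of all genes, 7.18% did. Whether the listed genes act on PIN proteins in this tissue was not tested. With Csalc replicate 3 left out, 6 of the 21 rose and 5 fell, where 19.2% and 16.8% of all genes did. GNL2 (Csa2G004740), an exchange factor whose Arabidopsis namesake acts in pollen, had 9.80 ± 0.365 CPM in WT and 1.73 ± 0.193 CPM in the double mutant (log2 fold change -2.50 ± 0.43, edgeR adjusted p = 0.00930). Summed over a list of 15 pollen genes, the level also lay lower, at 102 to 110.5 CPM in WT and 41.5 to 45.9 CPM in the double mutant, although its members differed among themselves, and its part in the GNL2 value was not tested. ROOT HAIR DEFECTIVE 3 homolog 2 (Csa1G713670), of a family that shapes the endoplasmic reticulum, rose by 2.18 ± 0.48 (edgeR adjusted p = 0.0235). ICR2 (Csa3G736850), an interactor of the ROP switches of cell polarity, rose by 1.31 ± 0.35 (edgeR adjusted p = 0.0476). PINOID (Csa1G537400), the kinase that sets PIN placement in Arabidopsis, was chosen after its values were seen. It had 9.44, 12.8 and 10.2 CPM in WT, 4.46, 3.43 and 4.48 CPM in the double mutant and 27.0 CPM in Csalc replicate 3. Its double mutant value was -1.39 ± 0.58 (edgeR adjusted p = 0.173), and -1.40 ± 0.18 without that library (adjusted p = 3.84e-04).

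Some Aux/IAA, auxin response factor and SAUR genes, which act in the response to auxin, passed edgeR's test in the double mutant. Of 26 Aux/IAA repressors tested, 0 rose and 3 fell, and the median was -0.73. Of 17 auxin response factors, 0 rose and 5 fell, with a median of -0.59, and of 36 SAUR genes 1 rose and 5 fell, with a median of 0.01. Among all genes 3.77% rose and 3.41% fell, with a median of 0.03. In the fit that leaves out Csalc replicate 3, 5 of 27 Aux/IAA genes rose and 12 fell, 2 of 17 auxin response factors rose and 10 fell, and 6 of 36 SAUR genes rose and 10 fell. Among all genes 19.2% rose and 16.8% fell in that fit, so the rises in the Aux/IAA and SAUR lists were near the share of all genes.

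Named members give the size of these changes. IAA29 (Csa1G231530) went from 74.7 ± 6.03 CPM in WT to 16.1 ± 2.91 CPM in the double mutant (log2 fold change -2.22 ± 0.43, edgeR adjusted p = 0.0147). IAA7 (Csa2G200420) fell in both Csalc and the double mutant, with 76.2 ± 12.7 CPM in WT, 32.2 ± 4.44 CPM in Csalc and 26.6 ± 6.52 CPM in the double mutant. AUX22 (Csa7G440550) went from 78.9 ± 14.8 to 29.6 ± 4.97 CPM. Among the transcription factors that bind auxin response elements, ARF18 (Csa6G141390) had 110.1 ± 0.206 CPM in WT and 44.4 ± 7.20 CPM in the double mutant. ARF9 (Csa4G052740) and ARF17 (Csa2G315390) fell by 1.15 and 1.14 on the log2 scale, and ARF3 (Csa6G518210), whose Arabidopsis namesake ETTIN patterns the carpel, by 0.72. All 4 passed edgeR's test, with adjusted p-values of 0.0409, 0.00853, 0.00436 and 0.0391 in this order. Among the SAUR genes, which are induced early by auxin, SAUR40 (Csa3G883020) fell by 2.08 (edgeR adjusted p = 0.0198), and protein 6B (Csa2G258630) and a pair named SAUR24 (Csa2G258640 and Csa2G258700) fell by 1.57, 1.73 and 1.36. IAA16 (Csa1G397130), which fell in Csalc, had 14.1 ± 1.87 CPM in WT, 3.78 ± 1.40 CPM in Csalc and 8.55 ± 2.76 CPM in the double mutant, where it did not pass the test.

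No member of the lists for auxin synthesis (4 tested), conjugation and breakdown (14 tested) or receptors (5 tested) passed edgeR's test in the double mutant, where 7.18% of all genes did. Unadjusted p-values under 0.05 were found for 2, 3 and 0 of them, beside 4521 of all 18850 genes. With Csalc replicate 3 left out, 2 of 6 synthesis genes fell, 3 of 15 conjugation and breakdown genes rose and 2 fell, and 1 of 5 receptor genes rose, where 36.1% of all genes passed in either direction.

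The genes most like PIN2 across the 12 libraries were sought by Pearson's r of log2 CPM among all 18849 other genes, and 86 of these had r over 0.9. All libraries share the genotype steps, so these values describe likeness of pattern. The closest was BEE 3 (Csa1G024150), a bHLH factor whose Arabidopsis relatives act in the transmitting tract, with r = 0.978. It had 519, 575 and 583 CPM in WT and 176, 119 and 112 CPM in the double mutant, a smaller fall than that of PIN2. Next came SRK2E (Csa7G074880), a kinase of abscisic acid signalling, at 0.977, and SFH3 (Csa2G248750), a lipid transfer protein, at 0.973. CONSTANS-LIKE 5 (Csa2G171860), ceramide kinase (Csa5G167040), SRM1 (Csa6G495660) and oligopeptide transporter 1 (Csa3G047870) had r from 0.965 to 0.967. Pectate lyase 5 (Csa2G350210), a pectin-cleaving enzyme, had 0.958, the zinc finger protein WIP2 (Csa3G810580) 0.954 and rhamnogalacturonate lyase B (Csa3G892760) 0.948.

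Among these 10, pectate lyase 5 came nearest to PIN2 in the size of its fall. It had 69.2, 51.5 and 54.4 CPM in WT, 14.5, 5.69 and 6.31 CPM in Csspt, and 2.10, 1.58 and 1.54 CPM in the double mutant. WIP2, in Arabidopsis needed for the transmitting tract, had 45.7, 46.1 and 46.2 CPM in WT, 12.4, 13.3 and 11.6 CPM in Csspt, and 8.19, 5.86 and 4.91 CPM in the double mutant. Both shared with PIN2 a higher value in Csalc replicate 3 than in the other Csalc libraries, at 16.2 and 20.7 CPM. The genes of most opposite pattern were tryptophan synthase alpha chain (Csa3G843770) at r = -0.943, long chain acyl-CoA synthetase 4 (Csa5G150390) at -0.941 and the MYB factor KUA1 (Csa1G586860) at -0.928. Lectin kinase LECRK3 (Csa4G290170) and a hydroxyisobutyryl-CoA hydrolase (Csa4G608110) both had -0.926.

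**Figure D5:**
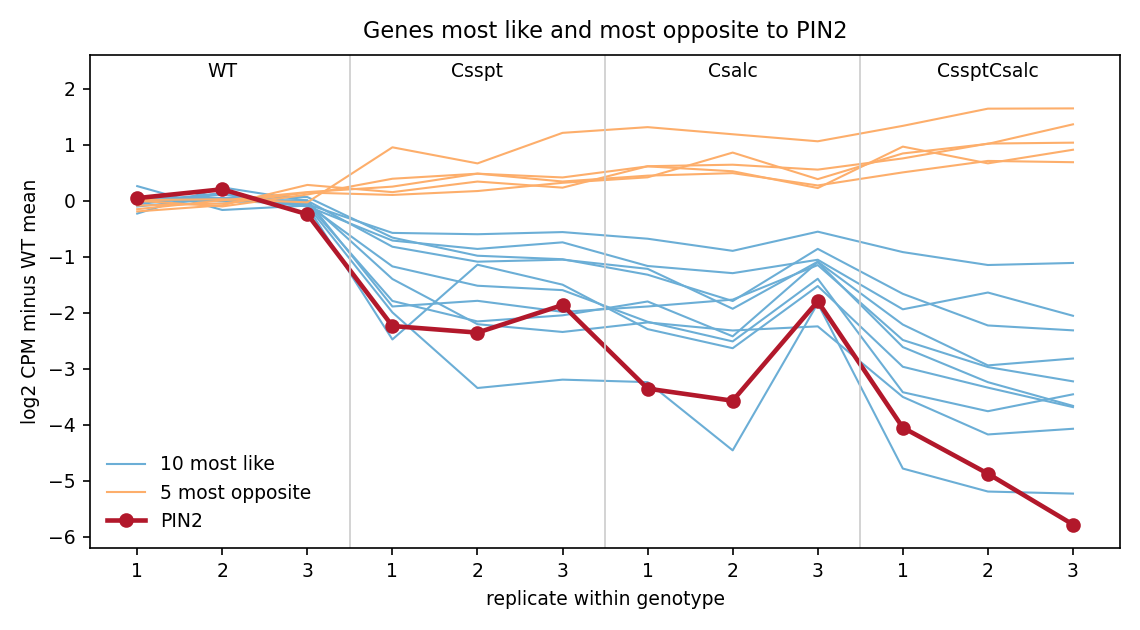
Log2 CPM minus the WT mean in each of the 12 libraries, ordered by genotype and replicate number, for PIN2, the 10 genes with the highest r to it and the 5 with the lowest. The like genes step down with PIN2 and most turn up in Csalc replicate 3, and the opposite genes lie above their WT mean in the mutants.

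The list of 10 depended on the measure. Spearman's rho kept 5 of them, r of log2(FPKM + 1) kept 7, and leaving out Csalc replicate 3 kept 4, namely BEE 3, SRK2E, SFH3 and ceramide kinase. Within the PIN family, r with PIN2 was 0.893 for PIN3, -0.526 for PIN8 and -0.232 for PIN4. SPATULA (Csa2G356640) had r = 0.521, and 0.909 once Csalc replicate 3 was left out, a library in which it had 10.5 CPM against 18.9 to 49.3 CPM elsewhere.

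The summed level of transmitting tract markers lay lower where PIN2 did, but its members differed. A list of 9 genes named SPATULA, BEE 3 or WIP2 summed to 630.1 to 691 CPM in WT, 345 to 429.9 CPM in Csspt, 219 to 368 CPM in Csalc and 150.4 to 231 CPM in the double mutant. Of the 9 genes, 6 reached 1 CPM in a library and 2 were at 0 in all, and BEE 3 (Csa1G024150) gave most of the sum. This gene and the WIP2 gene Csa3G810580 had lower means in every mutant than in WT. SPATULA (Csa2G356640) had 47.9 CPM in WT and 45.1 CPM in Csspt, but 22.1 CPM in Csalc and 24.5 CPM in the double mutant. The WIP2 gene Csa7G428260 had means of 12.7 CPM in WT, 15.1 in Csspt and 11.8 in the double mutant and its highest mean in Csalc, the WIP2 gene Csa4G571220 stayed between 2.09 and 2.72 CPM, and the BEE 3 gene Csa3G282490 was at 0.815 CPM in WT and 1.65 CPM in the double mutant. For each 100 CPM of these markers there were 3.56 ± 0.598 CPM of PIN2 in WT, 1.44 ± 0.385 in Csspt, 1.18 ± 0.575 in Csalc and 0.459 ± 0.166 in the double mutant (SD, n = 3). The ratio was 2.87 to 3.96 in WT, and its highest values were 1.88 in Csspt, 1.84 in Csalc and 0.615 in the double mutant. PIN2 was picked for its change between the genotypes, so a lower ratio in the mutants follows from that choice. It does not show whether fewer cells or less PIN2 RNA per cell lay behind the PIN2 level. The list holds WIP2 and BEE 3, which were also found by likeness to PIN2, so the 2 results share genes. The part of the marker change in the PIN2 level was not tested.

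Markers of other cells did not move as 1 group. The 15 pollen genes, 8 of which reached 1 CPM in a library, summed to 102 to 110.5 CPM in WT, 55.7 to 64.3 CPM in Csspt and 41.5 to 45.9 CPM in the double mutant, and in Csalc to 145 CPM in replicate 3 but 54.8 to 61.7 CPM in the other 2 libraries. The sum was carried by a few members that went different ways. Csa5G222980, a pollen allergen by name, had means of 26.8 CPM in WT and 0.338 CPM in the double mutant, and pollen receptor-like kinase 3 (Csa2G000010) had 41.8 and 13.8 CPM. Both were low in Csalc replicate 3, at 0.0983 and 4.89 CPM. The high sum in that library came from Csa6G485140 and Csa3G563290, at 67.8 and 66.5 CPM, of which the first had a higher mean in the double mutant, at 13.2 CPM, than in WT. Xylem genes summed to 267 to 276 CPM in WT and 289.9 to 312 CPM in the double mutant. Csspt had 237 to 292 CPM and Csalc 251 to 266 CPM. Phloem genes summed to 330.0 to 376 CPM in WT and 501 to 634 CPM in the double mutant. Csspt had 367 to 454 CPM and Csalc 338 to 383 CPM. Members of both lists went different ways. In WT and the double mutant, IRX10L (Csa1G000040) of the xylem list had means of 73.3 and 59.7 CPM. Cellulose synthase subunit 7 (Csa2G070320) had 0.528 and 4.78 CPM. Phloem gene Csa1G709160 had 93.8 and 84.5 CPM, but SIEVE ELEMENT OCCLUSION B (Csa2G199900) had 12.8 and 92.1 CPM. Genes of the epidermis and cuticle summed to 13.4 to 14.9 CPM in WT, 12.3 to 16.1 CPM in Csspt and 32.5 to 41.0 CPM in the double mutant, and in Csalc to 80.0 CPM in replicate 3 but 28.9 to 32.8 CPM in the other 2 libraries. Photosynthesis genes summed to 2169 to 2443 CPM in WT, 2289 to 3041 CPM in Csspt and 3691 to 4365 CPM in the double mutant, and in Csalc to 255 CPM in replicate 3 but 3138 to 3238 CPM in the other 2 libraries. In the epidermis list, 3-ketoacyl-CoA synthase 10 (Csa4G649640) gave most of the sum in WT and double mutant, at means of 10.3 and 27.4 CPM. The part of these markers in the PIN2 level was not tested.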

How the data were processed

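RNA was sequenced from 12 libraries, 3 biological replicates of 4 genotypes per the series design text. Read counts were deposited by the authors as whole numbers per gene, per the file headers. FPKM values, per gene length and library size, were also computed by the authors, per the file headers. The submitters' processing notes name HISAT2, HISAT and DESeq2. Tool versions, genome build, annotation and strand setting are not given in sources used here. The header DM was taken to mean the double mutant. The authors' own comparison columns were not used here. With 0 IDs found in the RefSeq table, gene names are those of the deposited annotation, and neither coordinates nor sequences are printed.

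The test was that of edgeR 4.0.16 (R 4.3.3), after filterByExpr at a minimum count of 10, with TMM factors, and a quasi-likelihood fit over all 4 groups with no block, Benjamini-Hochberg adjustment over all genes tested and a threshold of 0.05. Log2 CPM used a prior count of 2. Each standard error is the log2 fold change over the square root of its F value. Recovery of known changes was checked on simulated counts with less spread than the 12 libraries and no outlying library. It therefore does not measure recovery in these data. PIN2, the lists (patterns on protein names) and the tests were chosen with earlier results of these data known, and the list members' counts are descriptions. Named genes are PIN2, all genes named as PIN, PIN-LIKES or AUX1/LAX carriers (those not described are covered by their counts), up to 4 members per other list that passed against WT, the 10 most and 5 least like PIN2, and those named SPATULA; some genes under this rule are not reported here. Alternatives were DESeq2 1.42.0, limma 3.58.1 on log2(FPKM + 1) and log2(FPKM + 0.1) with a filter of 0.5 FPKM, RLE factors, other count filters, the compared groups alone, a replicate block and each library left out. Replicate pairs differed by more than sampling noise, so none was merged. Library totals were 32155631 to 37986853 counts, and a gene with 0 reads may still have up to 3 counts, or 0.0736 to 0.0982 CPM.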

Additional observations from a re-analysis of the deposited data

How the results depend on the processing

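PIN2 was lower in every mutant than in WT, and in the double mutant than in each single mutant, under all alternatives. On log2(FPKM + 1) its changes shrank to -1.70 in Csspt, -2.05 in Csalc, -2.93 in the double mutant, and -1.23 and -0.88 for the double mutant against Csspt and Csalc, since a pseudocount of 1 is large beside its FPKM. The departure from additivity was 0.81 on this scale and 0.09 on counts. Leaving out 1 library gave -2.31 to -2.05 in Csspt, -3.48 to -2.39 in Csalc, -5.27 to -4.42 in the double mutant, -3.11 to -2.26 for the double mutant against Csspt, -2.58 to -1.26 against Csalc and -0.43 to 0.89 for the departure from additivity. Without double mutant replicate 1 that departure was -0.43, and without Csalc replicate 3 it was 0.89.

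The counts of genes passing the test moved most. Over the 5 comparisons, in the order Csspt, Csalc and double mutant against WT, then double mutant against Csspt and Csalc, the main counts were 11, 148, 1353, 68 and 134 of all genes and 0, 0, 6, 0 and 1 of the auxin transport genes. DESeq2 gave 321, 1595, 2940, 872 and 966 of all genes and 1, 4, 12, 4 and 4 transport genes. With the compared groups alone these were 1219, 2, 6638, 1645 and 0 of all genes, and 7 (Csspt), 27 (double mutant), 11 (against Csspt) and 0 (against Csalc) transport genes. Limma on log2(FPKM + 1) gave 27 in Csspt, 159 and 297 for the double mutant against Csspt and Csalc, and 3 (double mutant) and 2 (against Csalc) transport genes. Limma on log2(FPKM + 0.1) gave 6 in Csspt and 229 against Csalc. No count filter gave 4 in Csspt, and a mean of at least 50 counts gave 17 in Csspt and 2 transport genes against Csalc. Leaving out 1 library gave 0 to 900, 33 to 1271, 433 to 6875, 7 to 2748 and 5 to 2131 of all genes, and 0 to 3, 0 to 8, 2 to 25, 0 to 16 and 0 to 12 transport genes. The highest counts came without Csalc replicate 3, except in Csalc against WT, where they came without Csalc replicate 1. The cause was not tested. PINOID (Csa1G537400) in Csalc had 0.18 ± 0.56 with 12 libraries and a range of -1.16 (without Csalc replicate 3) to 0.58 (without Csalc replicate 1), so its sign reversed with that library.

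The replicate numbers did not pair the libraries: 2 of 18 same-number pairs correlated over 0.1 (range -0.25 to 0.21), and 2 of 12 libraries were closest to their own number. With a replicate block PIN2 had -2.19 in Csspt, -2.78 in Csalc and -4.75 in the double mutant, and the block gave 3 genes in Csspt, 75 in Csalc, 33 against Csspt and 16 against Csalc.

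Depth limits statements on PIN2 in the double mutant, where 15 to 56 reads stand behind a library, and on the PIN genes near 0 reads.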

Other observations

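Csalc replicate 3 differed from the other 11 libraries in many genes of the auxin transport lists, which hold kinases and traffic factors beside carriers. Of the 57 auxin transport genes tested beside PIN2, 13 lay at least 2-fold above the range of the other 11 libraries in it and 5 at least 2-fold below, or 31.6%, against 20.3% of all genes. PIN-LIKES 7 genes went both ways: Csa3G000170 had 124 CPM against 3.36 to 14.5, and Csa3G000690 had 4.52 CPM against 39.6 to 148. Reads may be split between such near-identical names, which was not tested. Both AUX1/LAX genes outside the range lay below it, with Csa5G201310 at 0.221 CPM against at least 3.29 elsewhere. PIN2, at 6.78 CPM, stayed inside the range of 0.428 to 27.1 CPM.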
